A study of Mus musculus with 18 samples.

Results

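5C contacts across *HoxD* were compared between the pluripotent cell lines of the series, undifferentiated OS25 mouse ESCs and wild-type WTF18 ESCs. Members were taken by their labels, as the 2 libraries titled as undifferentiated OS25 and the 2 titled as the wild type of the Ring1B experiment, which are 4 of the 18 libraries of the series. All 4422 forward–reverse pairs of the 133 EcoRI fragments of the ESC design were considered. The labels name no treatment for WTF18 cells. For OS25 they carry the text on retinoic acid differentiation of this line, and these libraries were taken as undifferentiated from their titles. Both lines are labelled as ESCs grown on primary embryonic fibroblasts in medium with LIF, and no label names an altered Polycomb gene in either. Each line stands for itself alone, so that line, clone, culture and library preparation cannot be told apart. Replicates carry no label beyond their titles, and p-values measure the spread between libraries only.

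In 5C, fixed chromatin is cut, ligated and copied by pairs of forward and reverse primers, and the number of reads of a pair reports how often the fragments were joined. *Hoxd* genes encode homeodomain transcription factors that pattern the body axis and limbs, and *Evx2*, at the 5′ end of the cluster, encodes another homeodomain protein. In ESCs these genes are silent and covered by Polycomb proteins, a state linked to compact chromatin. *Lnp* and *Mtx2* flank the cluster, and the distal elements GCR and Prox lie in its 5′ gene desert and act as limb enhancers. GCR and Prox were taken as the fragments under them in the study's drawing of the region and are approximate. GCR was 17 fragments from 74246794 to 74352816, a wide stretch of the desert, and Prox 3 fragments from 74454010 to 74460207.

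The design reached over 666 kb of chromosome 2 (mm9), from 74241352 to 74907778. The 23 fragments that overlap the stretch from *Evx2* to *Hoxd1* were taken as the *Evx2*–*Hoxd1* span, with 40 fragments 5′ of it and 70 fragments 3′ of it. No fragment of the design overlaps *Hoxd10*. Of the 4422 pairs, 4251 joined midpoints at least 10 kb apart and were used, and the 171 nearer ones were not. All frequencies are reads per 1000 reads of the run.

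The contacts that ranked highest in both lines joined 6 fragments whose ends are shown here, since these junctions recur in the results that follow. Sequences are the plus strand of mm9, 30 bases at each end, with the EcoRI site in capitals. mHoxD_85 (8852 bp) covers parts of *Hoxd3* and *Hoxd4*, and its 5′ end is intronic to *Hoxd3* and its 3′ end exonic in *Hoxd3* and *Hoxd4*. mHoxD_163 (6228 bp) and mHoxD_22 (6831 bp) overlap no annotated gene. mHoxD_82 (4284 bp) overlaps *Hoxd3* and the transcript 1700109F18Rik, with a 5′ end exonic in 1700109F18Rik and a 3′ end intronic to both. mHoxD_67 (15260 bp) holds *Evx2* and mHoxD_70 (6159 bp) *Hoxd13*, each with intergenic ends.
mHoxD_85, chr2:74554813-74554842: GAATTCaaatgtcaagaagcagtgtccagg
mHoxD_85, chr2:74563641-74563670: gagggcccagaaaggtaaatgctcGAATTC
mHoxD_163, chr2:74843586-74843615: GAATTCtattctctcactgctgcccaaaca
mHoxD_163, chr2:74849790-74849819: cagaggaagacagctagcttcctaGAATTC
mHoxD_22, chr2:74317248-74317277: GAATTCtaatgtttacccataagcagttct
mHoxD_22, chr2:74324055-74324084: aatatttgcagttctcggttggctGAATTC
mHoxD_82, chr2:74548283-74548312: GAATTCacatctagtgtctcctccatatct
mHoxD_82, chr2:74552543-74552572: tctactaatacgtatattttgccaGAATTC
mHoxD_67, chr2:74483049-74483078: GAATTCaataaaatttgaagggttttattg
mHoxD_67, chr2:74498285-74498314: aatgagtattttatttaacaaataGAATTC
mHoxD_70, chr2:74505527-74505556: GAATTCtaagtctctgatgctgccccaaga
mHoxD_70, chr2:74511662-74511691: gaggatgctccagtagaaaggagaGAATTC
Outside the EcoRI site, the ends of mHoxD_85 and mHoxD_163 shared no run longer than 5 bases on the same strand and 7 bases on opposite strands, and those of mHoxD_22 and mHoxD_82 no run longer than 6 and 5 bases.

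The libraries held 835487 and 909923 reads in OS25 cells, and 653441 and 692267 reads in WTF18 cells, so that 3 reads correspond to between 0.0033 and 0.00459 reads per 1000. Pairs without any read made up 43.1% and 49.4% of the 4251 pairs in OS25 cells, against 59.2% and 59.8% in WTF18 cells. OS25 libraries were thus the fuller ones, and the lines did not overlap. An exact permutation test of 2 against 2 libraries cannot go below p = 0.333. When all 4 libraries were thinned to 653441 reads, reads remained in 56.8% and 50.6% of pairs in OS25 cells and in 40.8% and 40.2% in WTF18 cells. Thinning thus removed hardly any pair, and the number of ligated molecules behind the reads was not equalised. The part of depth in the gap was therefore not tested. The other 10 ESC libraries had 24.2% to 63.5% of pairs without reads. Inside the *Evx2*–*Hoxd1* span the gap was small, with reads in 94.3% and 97.1% of 105 pairs in OS25 cells and in 89.5% and 95.2% in WTF18 cells. Between replicates of a line, reads differed by a chi-square of 112 (OS25) and 114 (WTF18) per degree of freedom, far above counting error, and between lines by 99.3 to 117. Intervals from read counts therefore cover counting error only and are narrower than the spread between libraries.

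Both lines held a dense block of contacts over the *Hoxd* cluster. Pairs inside the *Evx2*–*Hoxd1* span had a mean frequency of 1.08 and 1.75 in OS25 cells, and of 1.27 and 1.47 in WTF18 cells. The WTF18 values lay between those of OS25, so that the replicates of OS25 were farther apart than the lines. The log2 difference, OS25 minus WTF18, was 0.01 with a 95% interval of −0.68 to 0.70 (limma, adjusted p = 0.991). Pairs inside the 5′ flank reached only 0.152 and 0.135 in OS25 cells and 0.126 and 0.130 in WTF18 cells, and pairs inside the 3′ flank 0.151 and 0.113 in OS25 cells and 0.118 and 0.130 in WTF18 cells. Set against flank pairs at matched distance, the domain enrichment was 2.48 and 3.61 on the log2 scale in OS25 cells, and 3.11 and 3.21 in WTF18 cells. It was above 0 in all 4 libraries, as in the other 10 ESC libraries, where it ranged from 0.90 to 3.41. The lines differed by −0.12 (95% interval −1.01 to 0.77, limma, adjusted p = 0.991).

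**Figure D1:**
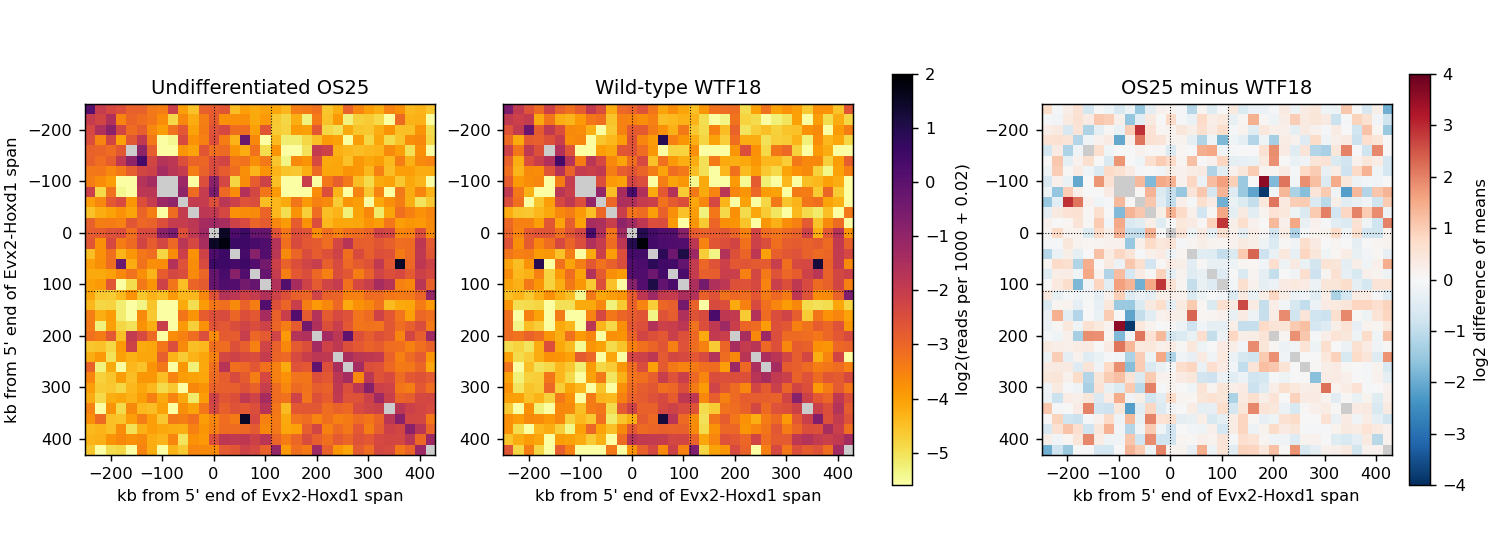
Mean contact frequency of pairs of 20-kb bins in undifferentiated OS25 (left) and wild-type WTF18 cells (middle), as log2(reads per 1000 + 0.02), and the log2 difference OS25 minus WTF18 of those means (right); axes are kb from the 5′ end of the *Evx2*–*Hoxd1* span, dotted lines mark its ends, and grey bins hold no pair that was used. Both maps show a dark block inside the span and isolated dark bins away from the diagonal, and the difference map shows no block over the span.

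Contacts of the span with its surroundings were weaker than those inside it in all 4 libraries. Span fragments contacted the 5′ flank at 0.136 and 0.125 in OS25 cells, against 0.125 and 0.163 in WTF18 cells. They contacted the 3′ flank at 0.261 and 0.171 in OS25 cells, against 0.208 and 0.194 in WTF18 cells. In every library the mean with the 3′ flank was thus the higher, over pairs matched neither for distance nor for primer efficiency. The long-range pairs mHoxD_85 with mHoxD_163 and mHoxD_22 with mHoxD_82 weighed on these means. Without them, the span contacted the 5′ flank at 0.111 and 0.115 in OS25 cells, against 0.106 and 0.0894 in WTF18 cells, so that the difference of −0.11 turned to 0.18 (95% interval −0.37 to 0.73, limma, adjusted p = 0.995). It contacted the 3′ flank at 0.168 and 0.145 in OS25 cells, against 0.158 and 0.146 in WTF18 cells, still above the 5′ flank in each library. The 2 flanks contacted each other at 0.0486 and 0.0333 in OS25 cells, and at 0.0379 and 0.0349 in WTF18 cells. Flank separation, the log2 ratio of pairs within a flank to pairs between flanks at 120 to 250 kb, was 0.85 and 0.91 in OS25 cells and 1.26 and 0.92 in WTF18 cells, with a difference of −0.21 (95% interval −0.72 to 0.31, limma, adjusted p = 0.991). Flanks that sit on opposite sides of the cluster were joined less often than equally distant sites of 1 flank in all 4 libraries.

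The 5′ border of the domain lay at the same place in both lines. Local contacts, the mean over pairs of 10 to 60 kb in the 20 kb to either side of each position on a 10-kb grid, peaked at position 74511352, between *Hoxd13* and *Hoxd12*, in both OS25 libraries, at 1.17 and 2.21. In WTF18 cells they peaked at the same position in replicate 1, at 1.36, and at 74551352, in *Hoxd3*, in replicate 2, at 1.5. The peak was 4.58 and 10.7 times the median along the region in OS25 cells, and 5.96 and 6.81 times in WTF18 cells. The stretch at or above 50% of the peak began at 74491352, in *Evx2*, in all 4 libraries. On the 3′ side it ended at 74561352 and 74551352 in OS25 cells, and at 74561352 and 74571352 in WTF18 cells, all within *Hoxd3*. The stretch was 70 and 60 kb long in OS25 cells, against 70 and 80 kb in WTF18 cells.

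**Figure D2:**
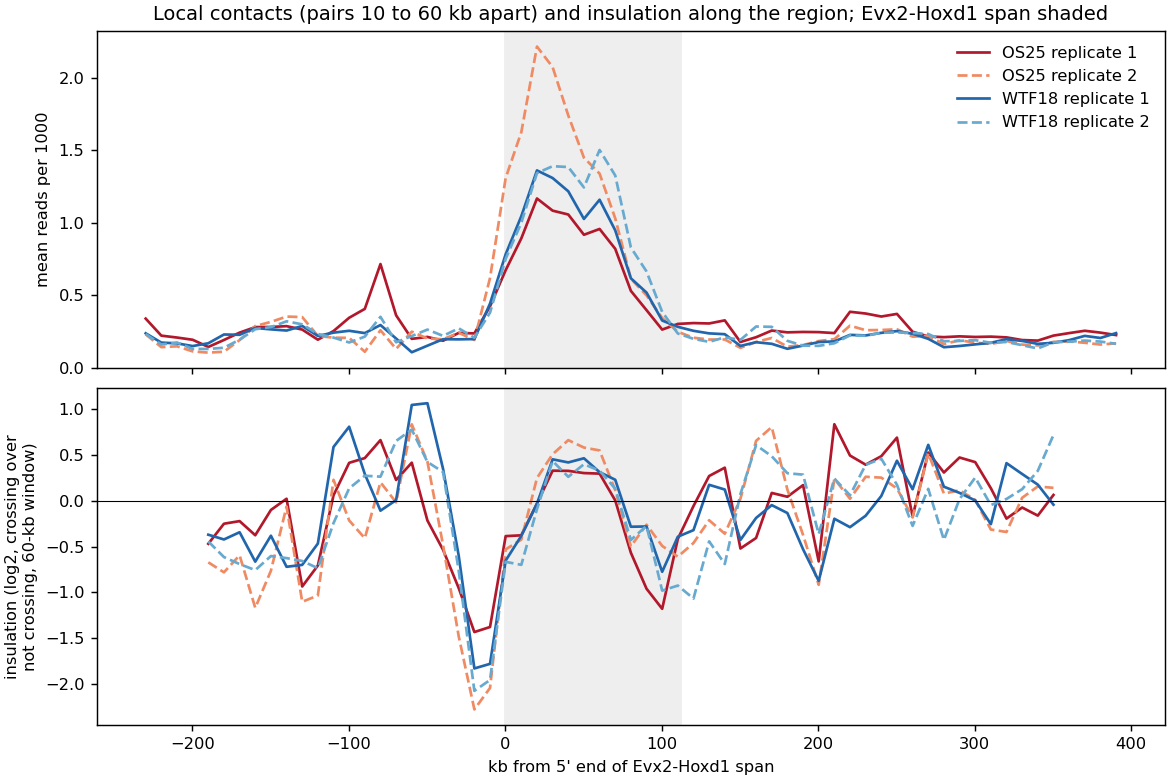
Local contacts as mean reads per 1000 (top) and insulation with a 60-kb window on the log2 scale (bottom) at positions 10 kb apart, in each OS25 (red and orange) and WTF18 (dark and light blue) library, with the *Evx2*–*Hoxd1* span shaded. Peaks of 1.17 to 2.21 lie inside the span in all 4 libraries, and the lowest insulation value of every library lies just 5′ of it.

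Insulation is the log2 ratio, after division by the mean at the same distance, of pairs that cross a position to pairs on 1 side of it within 60 kb, so that a low value marks an edge. Of 55 positions, the lowest value in each of the 4 libraries was at 74471352, 19.7 kb 5′ of the span. It was −1.43 and −2.28 on the log2 scale in OS25 cells, and −1.83 and −2.08 in WTF18 cells. The edge between Prox and *Evx2* was thus placed alike, to within the 10-kb step, in every library. At the 5′ end of the span itself insulation was −0.39 and −0.53 in OS25 cells, against −0.65 and −0.67 in WTF18 cells. The fragment that holds *Evx2* has its midpoint at 74490681, just 5′ of the gene, and its contacts with the cluster count as crossing there. Both OS25 values were above both WTF18 values, with a difference of 0.20 (95% interval −0.20 to 0.61, limma, adjusted p = 0.991). It was 0.088 with the highest 1% of pairs capped, 0.057 with primers scaled to equal means and 0.13 without OS25 replicate 1.

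By its lowest insulation value, the 3′ edge was shallower and less sharply placed in both lines. Within 60 kb of the 3′ end of *Hoxd1*, the lowest insulation was −1.18 at 74591352 and −0.61 at 74601352 in OS25 cells, and −0.78 at 74591352 and −1.07 at 74611352 in WTF18 cells. These values ranked 3 and 11 from the lowest of 55 positions in OS25 cells, and 4 and 3 in WTF18 cells. At the 3′ end of the span itself values were −0.20 and −0.59 in OS25 cells, against −0.43 and −0.86 in WTF18 cells. The groups overlapped, and the difference was 0.25 (95% interval −0.24 to 0.74, limma, adjusted p = 0.991). At the 5′ end of the span, insulation was −0.39 and −0.53 in OS25 cells, and −0.65 and −0.67 in WTF18 cells. Between the ends themselves, the 3′ value was thus the lower in replicate 2 of each line and the higher in replicate 1.

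Contacts fell with distance at a like rate. At 10 to 20 kb the mean frequency was 0.513 and 0.660 in OS25 cells, and 0.562 and 0.652 in WTF18 cells. At 40 to 80 kb it was 0.271 and 0.246 in OS25 cells, and 0.228 and 0.242 in WTF18 cells. At 320 to 640 kb it was 0.0636 and 0.0458 in OS25 cells, and 0.0543 and 0.0471 in WTF18 cells. The slope of log2 frequency on log2 distance was −0.56 and −0.76 in OS25 cells, and −0.64 and −0.69 in WTF18 cells. Both WTF18 slopes lay between the OS25 slopes, and the difference was 0.01 (95% interval −0.34 to 0.35, limma, adjusted p = 0.991).

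The class from 160 to 320 kb stood out of the decay, with 0.161 and 0.107 in OS25 cells and 0.124 and 0.142 in WTF18 cells, above the nearer class in all but OS25 replicate 2. The class from 80 to 160 kb held 0.132 and 0.121 in OS25 cells, and 0.117 and 0.118 in WTF18 cells. Of the 1376 pairs at 160 to 320 kb, only 2, mHoxD_85 with mHoxD_163 and mHoxD_22 with mHoxD_82, carried the excess. Without them the class held 0.0984 and 0.0879 in OS25 cells, and 0.0883 and 0.0892 in WTF18 cells, below the nearer class in every library. Among pairs of flank fragments alone the slope was −0.56 and −0.66 in OS25 cells, and −0.59 and −0.61 in WTF18 cells.

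**Figure D3:**
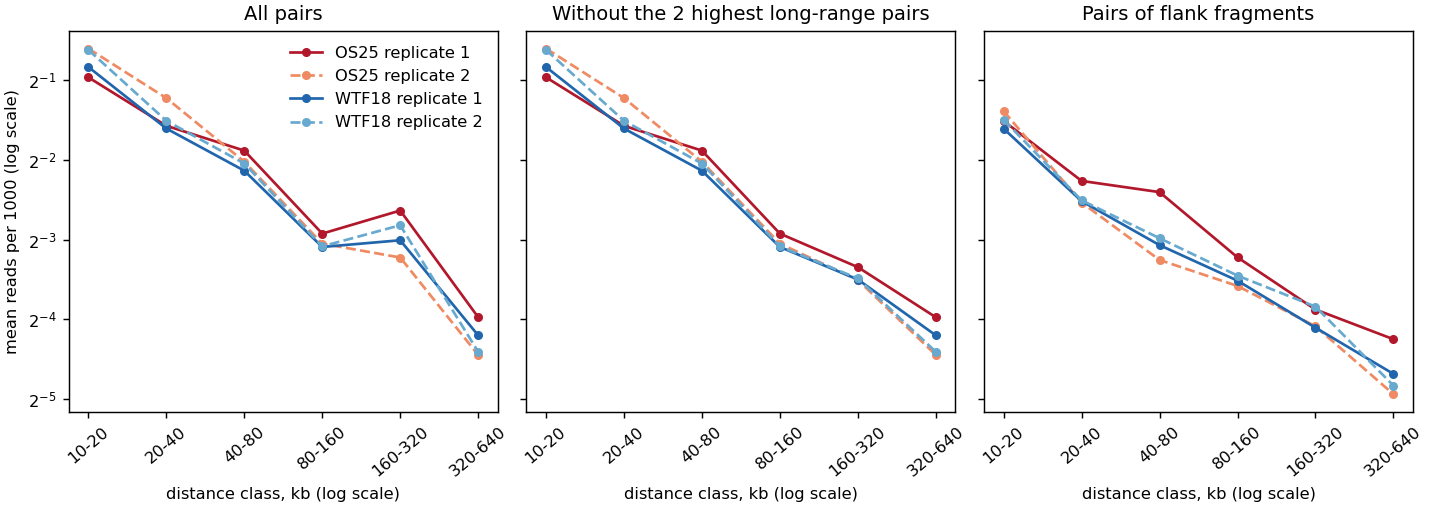
Mean reads per 1000 against distance class in kb, both on log scales, for all pairs, without the 2 highest long-range pairs, and for pairs of flank fragments, in each OS25 (red and orange) and WTF18 (dark and light blue) library. The bump at 160 to 320 kb in the left panel is absent once the 2 pairs are left out.

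Inside the span contacts fell less with distance in both lines. Pairs 10 to 20 kb apart had 1.51 and 2.40 in OS25 cells, and 1.91 and 2.45 in WTF18 cells. Pairs 80 to 160 kb apart, which join the ends of the cluster, still had 1.10 and 1.81 in OS25 cells, and 1.35 and 1.13 in WTF18 cells. The 561 flank pairs 80 to 160 kb apart had 0.107 and 0.0835 in OS25 cells, and 0.0874 and 0.0914 in WTF18 cells. Only 10 pairs inside the span fall in this class. As the span fragments cover 122 kb, these pairs do not reach its far end, so distances are not matched.

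Single genes ranked alike as partners of the span. Fragment lengths and primer efficiencies were not corrected. Levels of different genes are thus not set against each other in size, and only their order across libraries is followed. All 4 libraries share these fragments and primers, and the part of this in a common order was not tested. *Hoxd11*, *Evx2* and *Hoxd13*, each on 1 fragment, held the first 3 places of 13 viewpoints in all 4 libraries. *Hoxd11* contacted the span at 2.58 and 5.55 in OS25 cells, and at 3.62 and 3.85 in WTF18 cells. *Evx2* did so at 2.79 and 4.84 in OS25 cells, and at 2.98 and 3.12 in WTF18 cells. *Hoxd13*, the most 5′ *Hoxd* gene and a regulator of digits, did so at 1.88 and 4.06 in OS25 cells, and at 2.31 and 1.98 in WTF18 cells. For each gene the WTF18 libraries lay inside the range of the OS25 libraries. The differences were 0.02 (95% interval −1.07 to 1.11) for *Hoxd11*, 0.27 (−0.58 to 1.12) for *Evx2* and 0.37 (−0.44 to 1.18) for *Hoxd13*, all with adjusted p = 0.991 in limma.

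The other *Hoxd* genes took places 4 to 9 of 13 in every library. *Hoxd8* contacted the span at 0.983 and 1.67 in OS25 cells, and at 1.31 and 1.15 in WTF18 cells. *Hoxd3*, on 9 fragments, did so at 0.989 and 1.46 in OS25 cells, and at 1.12 and 1.45 in WTF18 cells. *Hoxd9* had 0.774 and 1.23 in OS25 cells, and 0.970 and 1.09 in WTF18 cells. *Hoxd9* and *Hoxd8* lie in the middle of the cluster and *Hoxd3* 3′ of them, and the OS25 and WTF18 ranges of these 3 genes overlapped. *Hoxd1*, the most 3′ gene, had 0.872 and 1.09 in OS25 cells, and 0.986 and 0.875 in WTF18 cells. *Hoxd4*, whose 4 fragments are all among the 9 of *Hoxd3*, had 0.734 and 0.981 in OS25 cells, and 0.752 and 0.960 in WTF18 cells. *Hoxd12*, on 3 short fragments, was lowest of the *Hoxd* genes in every library, with 0.395 and 0.679 in OS25 cells and 0.452 and 0.441 in WTF18 cells.

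**Figure D4:**
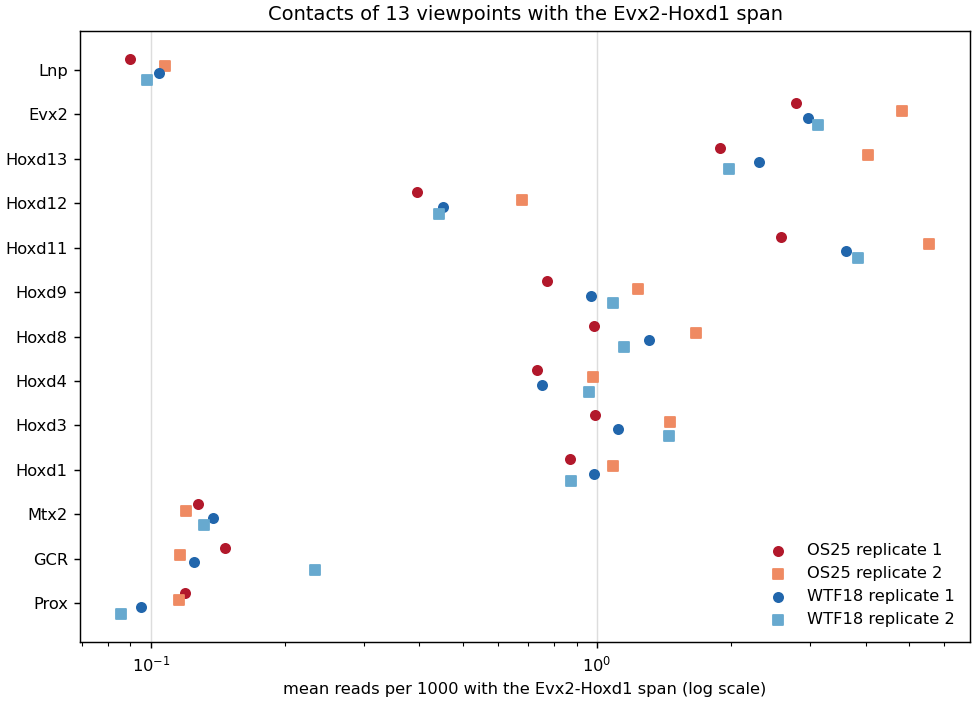
Mean reads per 1000, on a log scale, of contacts of 13 viewpoints with the *Evx2*–*Hoxd1* span, in each OS25 (red and orange) and WTF18 (dark and light blue) library. *Hoxd11*, *Evx2* and *Hoxd13* lie at 1.88 or more in all 4 libraries, and *Lnp*, *Mtx2*, GCR and Prox at 0.233 or less.

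Outside the span, *Lnp*, whose product shapes the endoplasmic reticulum, contacted it at 0.0900 and 0.108 in OS25 cells, and at 0.104 and 0.0982 in WTF18 cells. *Mtx2*, which encodes a mitochondrial import protein, contacted it at 0.127 and 0.120 in OS25 cells, against 0.138 and 0.131 in WTF18 cells. Prox did so at 0.119 and 0.116 in OS25 cells, against 0.0951 and 0.0857 in WTF18 cells. For *Mtx2* both OS25 libraries were below WTF18, and for Prox both were above, with differences of −0.10 (95% interval −0.68 to 0.48) and 0.32 (−0.14 to 0.78) and adjusted p = 0.991 for each in limma. GCR contacted the span at 0.147 and 0.116 in OS25 cells, and at 0.125 and 0.233 in WTF18 cells, and its difference of −0.34 (95% interval −0.97 to 0.28) turned on a single pair. Without mHoxD_22 with mHoxD_82 and the other high long-range pair, GCR had 0.0867 and 0.0918 in OS25 cells, against 0.0780 and 0.0607 in WTF18 cells, a difference of 0.30 (95% interval −0.26 to 0.85).

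Contacts with the 5′ flank overlapped between the lines for 9 of 13 viewpoints, and contacts with the 3′ flank for 11 of 13. *Evx2* contacted the 5′ flank at 0.283 and 0.332 in OS25 cells, against 0.330 and 0.276 in WTF18 cells, and the 3′ flank at 0.236 and 0.252 in OS25 cells, against 0.272 and 0.251 in WTF18 cells. *Hoxd11* contacted the 5′ flank at 0.264 and 0.383 in OS25 cells, against 0.276 and 0.290 in WTF18 cells. For both genes the ranges overlapped on either side. *Hoxd13* with the 5′ flank had 0.351 and 0.248 in OS25 cells, against 0.264 and 0.137 in WTF18 cells, a difference of 0.58 with a 95% interval of −0.48 to 1.64 (limma, adjusted p = 0.991). It shrank to 0.051 with primers scaled to equal means, and was 0.15 without WTF18 replicate 2, 0.34 without OS25 replicate 1 and 1.00 without WTF18 replicate 1. *Hoxd1* leaned to the other side, with 0.307 and 0.229 in OS25 cells and 0.254 and 0.191 in WTF18 cells for the 3′ flank, against 0.0614 and 0.0575 in OS25 cells and 0.0369 and 0.0770 in WTF18 cells for the 5′ flank. *Hoxd1* thus contacted its near flank more often than its far flank in all 4 libraries.

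*Hoxd4* and *Hoxd3*, which share fragments and which the high long-range pairs touch, moved when these pairs were left out. *Hoxd4* contacted the 3′ flank at 0.676 and 0.269 in OS25 cells, against 0.418 and 0.404 in WTF18 cells. Without the 2 pairs it did so at 0.145 and 0.117 in OS25 cells, against 0.130 and 0.130 in WTF18 cells, and the wide gap between the OS25 replicates was gone. *Hoxd3* contacted the 5′ flank at 0.141 and 0.106 in OS25 cells, against 0.119 and 0.253 in WTF18 cells. Without the 2 pairs it did so at 0.0756 and 0.0794 in OS25 cells, against 0.0683 and 0.0657 in WTF18 cells. The difference was −0.45 (95% interval −1.26 to 0.36) with them and 0.16 (−0.36 to 0.69) without them, so that its sign rested on a single pair, and neither passed in limma.

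The windows of the probes that the study drew for FISH, which images distances in nuclei, were compared as well. These windows were read by eye from the drawing, are approximate and carry the names of the probes. The *Hoxd13* window also takes in the *Evx2* fragment and desert 5′ of it. The *Hoxd3* window takes in the *Hoxd1* fragment and leaves out the 5′ part of *Hoxd3*. The *Hoxd13* window with the *Hoxd3* window, at opposite sides of the cluster, had 0.641 and 1.01 in OS25 cells and 0.690 and 0.733 in WTF18 cells. GCR with *Lnp* had 0.1003 and 0.0804 in OS25 cells and 0.0723 and 0.0835 in WTF18 cells. Prox with *Hoxd10* had 0.153 and 0.166 in OS25 cells and 0.134 and 0.123 in WTF18 cells, the only window pair whose lines did not overlap, with a difference of 0.27 (95% interval −0.44 to 0.99, limma, adjusted p = 0.991). The window named *Hoxd10* holds neighbouring fragments, as no fragment overlaps that gene.

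A single long-range contact led in both lines. The pair mHoxD_85 with mHoxD_163, 287 kb apart, was the highest of 4251 pairs in each of the 4 libraries. It took 74.5 and 21.5 reads per 1000 in OS25 cells, and 40.4 and 38.5 in WTF18 cells. The Wilson 95% intervals of these values were 74.0 to 75.1 and 21.2 to 21.8 in OS25 cells, and 39.96 to 40.9 and 38.1 to 39.0 in WTF18 cells, so that the OS25 replicates differed far beyond counting error. In the 14 ESC libraries it ranged from 10.8 to 77.0 and was among the highest 2 pairs in all 14. The pair mHoxD_22 with mHoxD_82, 230 kb apart, had 11.9 and 4.90 in OS25 cells, against 9.23 and 33.9 in WTF18 cells. It ranked 2 and 8 in OS25 cells, and 2 in both WTF18 libraries.

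Inside the span the leading contacts joined *Evx2* and *Hoxd11* with the rest of the cluster. *Evx2* with *Hoxd13* (mHoxD_67 with mHoxD_70, 17.9 kb) had 5.71 and 12.7 in OS25 cells, and 7.97 and 6.04 in WTF18 cells, and was the first partner of *Hoxd13* among 9 in all 4 libraries. *Evx2* with *Hoxd11* (mHoxD_67 with mHoxD_75, 29.6 kb) had 3.43 and 13.8 in OS25 cells, and 5.09 and 5.66 in WTF18 cells. *Hoxd11* with *Hoxd9* (mHoxD_75 with mHoxD_78, 17.6 kb) had 2.56 and 4.27 in OS25 cells, and 3.48 and 3.55 in WTF18 cells. In each of these both WTF18 libraries lay inside the OS25 range. *Hoxd11* with a fragment in *Hoxd3* and *Hoxd4* (mHoxD_88, 49.1 kb) had 3.72 and 5.97 in OS25 cells, and 3.82 and 4.07 in WTF18 cells. *Evx2* with the *Hoxd3* fragment mHoxD_89, 83.1 kb away, had 3.00 and 4.49 in OS25 cells, and 4.55 and 4.60 in WTF18 cells. *Hoxd11* with mHoxD_82 at *Hoxd3*, 30.1 kb away, had 2.71 and 7.27 in OS25 cells, and 3.98 and 3.79 in WTF18 cells. *Evx2* with mHoxD_83, a fragment of 170 bp in *Hoxd3*, went the other way within OS25, with 6.16 and 3.42 in OS25 cells and 2.98 and 5.43 in WTF18 cells, and was the first partner of *Evx2* in OS25 replicate 1 alone. Of the 10 pairs with the highest lowest frequency, 8 lay inside the span. *Evx2* with mHoxD_87, the lowest of its 10 partners in every library, had 0.265 and 0.410 in OS25 cells and no read in either WTF18 library.

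**Figure D5:**
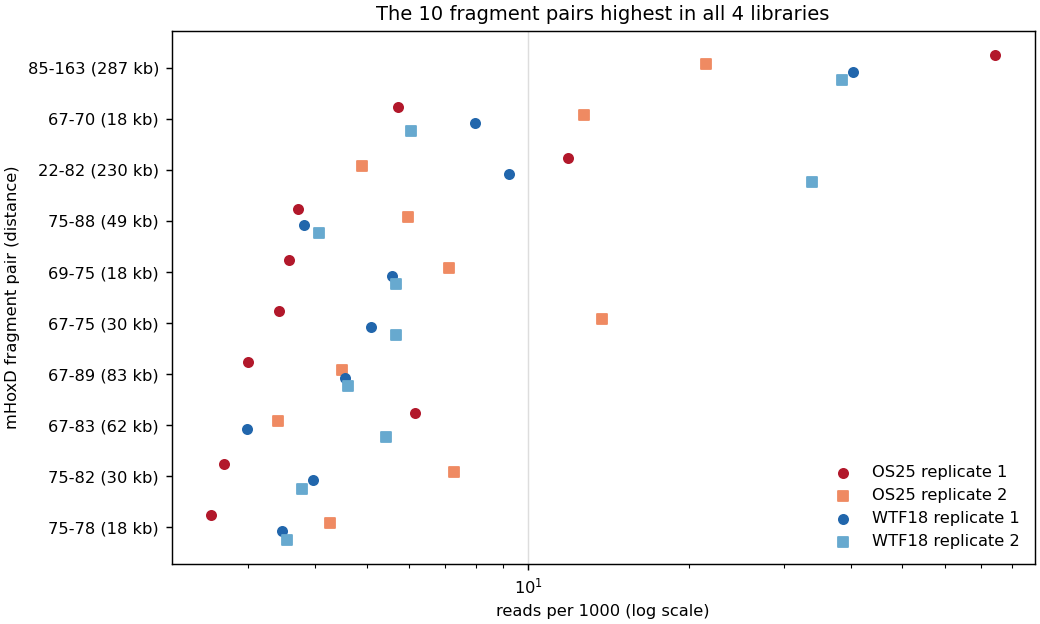
Reads per 1000, on a log scale, of the 10 fragment pairs whose lowest value over the 4 libraries was highest, in each OS25 (red and orange) and WTF18 (dark and light blue) library, with the distance of the fragments in kb. The pair mHoxD_85 with mHoxD_163 is highest in every library, from 21.5 to 74.5, and OS25 replicate 1 and replicate 2 bracket the WTF18 libraries in most other pairs.

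Between-line likeness lay near that of the WTF18 replicates, while the OS25 replicates were more alike in rank than any between-line pair over all pairs and inside the span. Of the 100 highest pairs of each library, 59 were shared by the OS25 replicates, 61 by the WTF18 replicates and 56 to 66 by an OS25 and a WTF18 library. All 4 libraries shared 50 of them, of which 40 lay inside the span. Another 3 were in both OS25 lists alone and 5 in both WTF18 lists alone. Over all 4251 pairs, Spearman's rho was 0.43 between OS25 replicates, 0.36 between WTF18 replicates and 0.37 to 0.42 between lines. Inside the span it was 0.87 between OS25 replicates, 0.80 between WTF18 replicates and 0.77 to 0.85 between lines over 105 pairs. Between the flanks it was 0.14 between OS25 replicates, 0.16 between WTF18 replicates and 0.09 to 0.20 between lines over 1400 pairs, many of them without reads. The summed contacts of the 133 fragments, which share primer efficiency, correlated at a rho of 0.89 between OS25 replicates, 0.90 between WTF18 replicates and 0.89 to 0.91 between lines. Pairs of a library share their fragments and depth, and these values are descriptions.

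Of the pairs that ranked in 1 line only, *Lnp* with *Evx2* (mHoxD_45 with mHoxD_67, 80.7 kb) had 0.549 and 0.754 in OS25 cells, against 1.44 and 1.08 in WTF18 cells. mHoxD_68, a fragment between *Evx2* and *Hoxd13*, split by partner. With mHoxD_84 in *Hoxd3* it had 1.00 and 1.30 in OS25 cells, against 0.421 and 0.402 in WTF18 cells, and with mHoxD_88 it had 0.225 and 0.713 in OS25 cells, against 1.86 and 1.29 in WTF18 cells. In the 3′ flank, mHoxD_125 in *Mtx2* with mHoxD_183 had 1.04 and 0.915 in OS25 cells, against 0.214 and 0.389 in WTF18 cells. mHoxD_96 with mHoxD_156 had 0.135 and 0.296 in OS25 cells, against 1.03 and 6.68 in WTF18 cells, a pair in which the WTF18 replicates were themselves far apart. These were chosen by their ranks and carry no test.

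Across the region, no difference between the lines passed the test. Of 62 region readouts (means, ratios, slopes and edges), 0 had an adjusted p at or under 0.05 (0%) and 2 had an unadjusted p under 0.05 in limma. Both OS25 libraries were above both WTF18 libraries in 12 readouts (19.4%) and below in 2 (3.23%). The 12 were Prox with the span and with each flank, *Mtx2* with each flank, GCR and *Hoxd8* with the 5′ flank, the windows of the Prox and *Hoxd10* probes, the pairs inside the 5′ flank, the classes 40 to 80 and 80 to 160 kb, and the 5′ end of the span. The 2 were flank separation and *Mtx2* with the span. The 2 with an unadjusted p under 0.05 were sparse flank contacts. Prox with the 3′ flank had 0.0480 and 0.0336 in OS25 cells, against 0.0240 and 0.0184 in WTF18 cells, a difference of 0.55 (95% interval 0.01 to 1.10, adjusted p = 0.991 in limma). *Mtx2* with the 5′ flank had 0.0643 and 0.0546 in OS25 cells, against 0.0467 and 0.0304 in WTF18 cells, a difference of 0.45 (95% interval 0.00 to 0.90, adjusted p = 0.991 in limma). With a pseudocount of 0.1 they were 0.21 for Prox and 0.20 for *Mtx2*. With primers scaled, Prox was 0.60 (adjusted p = 0.512 in limma) and *Mtx2* 0.28. *Mtx2* was 0.25 without WTF18 replicate 2. Over the alternatives run, Prox ranged from 0.21 to 0.80 and *Mtx2* from 0.20 to 0.65. No readout had an unadjusted p under 0.05 under either rescaling of the libraries, with the replicate block or in a fit of the 4 libraries alone. Both lie where WTF18 libraries had more pairs without reads, and the part of this in the differences was not tested. The median interval of a readout reached 0.60 on the log2 scale to either side, or 1.52-fold.

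Among smaller units, too, more had OS25 above than below. Of 557 pairs of 20-kb bins, 0 passed (0%) and 31 had an unadjusted p under 0.05, 22 higher and 9 lower in OS25 cells. Both OS25 libraries were above both WTF18 libraries in 109 bin pairs (19.6%) and below in 68 (12.2%). Of 3484 fragment pairs that passed the filter on low values, 0 passed (0%) and 165 had an unadjusted p under 0.05 in limma. There, OS25 was above in 509 pairs (14.6%) and below in 316 (9.07%), and 767 pairs did not pass the filter. Inside the span the order was 17 above and 19 below of 104 pairs, and inside the 3′ flank 173 above and 90 below of 1054. The median interval of a fragment pair reached 3.07 on the log2 scale to either side, or 8.42-fold, so that single pairs were poorly resolved. With limma's voom on the reads recovered from the steps of each library, 0 of 3484 pairs passed and 363 had an unadjusted p under 0.05.

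The bin pair nearest to the threshold joined the desert just 5′ of *Evx2* (74461352 to 74481351) with the 3′ part of the cluster (74581352 to 74601351). The latter bin holds mHoxD_92, at the end of *Hoxd3*, and mHoxD_93, and not the *Hoxd1* fragment, whose midpoint lies in the next bin. Its 4 fragment pairs had a mean of 0.117 and 0.134 in OS25 cells and no read in either WTF18 library, with an adjusted p of 0.103 in limma, and 9 of the other 10 ESC libraries had reads there, up to 0.0947. Next came 2 bin pairs at an adjusted p of 0.311 in limma. A bin of the GCR (74281352 to 74301351) with the bin next to *Lnp* that holds 4930445N08Rik (74421352 to 74441351) had 0.0962 and 0.166 in OS25 cells and no read in WTF18 cells. A bin of *Lnp* (74401352 to 74421351) with a bin of *Mtx2* (74661352 to 74681351), a single fragment pair, had no read in OS25 cells, against 0.370 and 0.175 in WTF18 cells. A bin of *Lnp* with the bin from *Hoxd13* to *Hoxd11* (74401352 to 74421351 with 74501352 to 74521351) had an adjusted p of 0.819 in limma. It had 0.0614 and 0.136 in OS25 cells, against 0.386 and 0.260 in WTF18 cells. By primer direction, its 3 fragment pairs join mHoxD_45 of *Lnp* with mHoxD_69, 5′ of *Hoxd13*, and with mHoxD_71 and mHoxD_74 at *Hoxd12*. No contact of the *Hoxd13* or *Hoxd11* fragment is in it. The other 6 bin pairs named by the rule, 3 higher and 3 lower in OS25 cells, had adjusted p of 0.707 to 1 in limma. With bins of 40 kb, 1 of 153 bin pairs passed, at an adjusted p of 0.0123 in limma. It joined the GCR (74281352 to 74321351) with a bin (74401352 to 74441351) that holds mHoxD_45 of *Lnp*, and mHoxD_48 and mHoxD_49 beside the gene. It had 0.107 and 0.140 in OS25 cells, against 0.0168 and 0.0142 in WTF18 cells. Its 20-kb parts are given as means of both libraries of a line. The bin beside *Lnp* with the 5′ GCR bin had a mean of 0.131 in OS25 cells, against 0 in WTF18 cells. With the 3′ GCR bin it had 0.167 in OS25 cells, against 0.0223 in WTF18 cells. The bin of mHoxD_45 with the 5′ GCR bin had 0.0856 in OS25 cells, against 0.0329 in WTF18 cells. With the 3′ GCR bin it had 0.00299 in OS25 cells, against 0 in WTF18 cells.

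Among fragment pairs, the 5 highest and the 5 lowest differences with groups apart were all pairs with reads in both libraries of 1 line and none in the other. *Hoxd11* with mHoxD_154, 288 kb 3′, had 0.534 and 0.618 in OS25 cells and no read in WTF18 cells. mHoxD_125 in *Mtx2* with mHoxD_169, 164 kb 3′, had 0.669 and 0.460 in OS25 cells and no read in WTF18 cells, and reads in all of the other 10 ESC libraries. *Evx2* with mHoxD_173, 378 kb 3′, had no read in OS25 cells, against 0.678 and 0.173 in WTF18 cells. mHoxD_2 with mHoxD_27, at the 2 ends of the stretch taken as GCR and 95.2 kb apart, had no read in OS25 cells, against 0.461 and 0.487 in WTF18 cells. These values lie far above that of 3 reads, which covers counting error only and not the number of ligated molecules behind the reads. All 10 had an adjusted p of 0.931 in limma. Of all 4251 pairs, 300 (7.06%) had reads in both OS25 libraries and none in WTF18, and 69 (1.62%) the reverse. Reads in all 4 libraries were found for 705 (16.6%). Pairs without reads made up 43.1% and 49.4% in OS25 libraries, against 59.2% and 59.8% in WTF18 libraries. The part of this in the counts was not tested.

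In the same fit, 14 of 62 readouts (22.6%) passed between ESCs labelled as *Eed* knockout and WTF18, 12 of them lower in the knockout cells. That comparison shares the WTF18 libraries, and whether it differs from OS25 against WTF18 was not tested.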

How the data were processed

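The deposited 5C matrices hold a signal for every forward–reverse pair, which the authors made by dividing the reads of a contact by all reads of its Ion Torrent run and multiplying by 1000. The reads were processed through a Torrent 5C transformation pipeline on Galaxy, and the build was mm9 per the submitters' processing notes. An aligner was not given in the sources used here. No distance, fragment length or primer efficiency was corrected, so that levels of different fragments also reflect primers. In each library 100% of values were whole multiples of a smallest step within 0.05 reads, which gave the read totals. Wilson intervals and the limit of 3 reads cover counting error only.

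Only pairs of midpoints at least 10 kb apart were used. Region means, ratios within a library, slopes, insulation values, pairs of 20-kb bins and fragment pairs were fitted with limma 3.58.1 (R 4.3.3) as log2(value + 0.02), ratios and slopes as they are, over the 14 ESC libraries in 7 groups, two-sided. Fold changes of low pairs are understated on that scale. Bin and fragment pairs entered where their mean over the 14 libraries was above 0.02, and p-values were adjusted by Benjamini-Hochberg over each table. The 4 limb libraries use another primer design and were not used. Differences are OS25 minus WTF18. The named genes are those the study draws in the region, with the 10 shared contacts of highest lowest value, and the 5 highest and 5 lowest differences of bin and fragment pairs whose groups do not overlap. Members and lists were chosen with earlier results of these data known. Scripts were tested on simulated data. Alternatives changed the scaling, pseudocount, filter, minimum distance, bins, span, window, libraries and block. Leaving out the 2 highest long-range pairs, and voom on recovered reads, were chosen after seeing the data.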

Additional observations from a re-analysis of the deposited data

How the results depend on the processing

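No region readout and no fragment pair passed the threshold in limma under any alternative run. Several differences changed sign. The span mean was −0.11 with equal bin medians, −0.060 with equal sums, −0.036 with no minimum distance and −0.10 with a span from *Hoxd13* to *Hoxd1*. Flank separation was 0.057 with that span, the decay slope −0.030 at a minimum of 20 kb and the 3′ edge −0.077 with a 100-kb window. The slope outside the span was 0.0081 with the highest 1% of pairs capped and 0.013 with primers scaled to equal means. *Hoxd13* with the span was −0.16 with primers scaled. *Hoxd11* with the span was −0.10 with equal bin medians, −0.051 with equal sums, −0.037 with no minimum distance, −0.046 with capped pairs and −0.045 with the shorter span. GCR with the span was 0.27 with capped pairs, 0.074 with primers scaled and 0.30 without the 2 highest long-range pairs. Apart from GCR without those pairs, the cause was not tested.

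Leaving out 1 library at a time gave −0.33 to 0.35 for the span mean, −0.68 to 0.44 for domain enrichment, −0.38 to −0.03 for flank separation, −0.10 to 0.11 for the slope, −0.054 to 0.044 outside the span, 0.13 to 0.27 for the 5′ edge and 0.03 to 0.47 for the 3′ edge. It gave −0.13 to 0.66 for *Evx2*, −0.18 to 0.92 for *Hoxd13*, −0.53 to 0.57 for *Hoxd11* and −0.75 to 0.060 for GCR with the span, 0.15 to 1.00 for *Hoxd13* and 0.25 to 0.65 for *Mtx2* with the 5′ flank and 0.38 to 0.73 for Prox with the 3′ flank, and a lone library was taken to vary like the other groups. With the replicate block the span mean differed by 0.01 and the smallest adjusted p of the readouts was 0.99, with no call changed. The titles mark a replicate without saying that it pairs the lines.

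One bin pair passed under each of 2 settings. With primers scaled, GCR with the bin beside *Lnp* (74281352 to 74301351 with 74421352 to 74441351) had an adjusted p of 0.020 in limma (1 of 574). With 40-kb bins, 74281352 to 74321351 with 74401352 to 74441351 had an adjusted p of 0.0123 in limma (1 of 153). This is GCR with mHoxD_45 of *Lnp* and the fragments beside the gene. It had 0.107 and 0.140 in OS25 cells against 0.0168 and 0.0142 in WTF18 cells. Ranking by observed over expected left 20 of 100 pairs in all 4 libraries. The central stretch was 50 kb in the OS25 mean at 60% of the peak, and 90 and 60 kb in the WTF18 mean at 40% and 60%. The planned count tests in edgeR and DESeq2 were not run on this signal, and voom was fitted instead. The median 95% interval of a fragment pair, 8.42-fold to either side, limits what single pairs can show.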
